A study of Mus musculus with 2 samples.

Results

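The genes described here are 10 markers of brain endothelium and of the blood-brain barrier, namely Cldn5, Pecam1, Flt1, Tek, Slco1a4, Slco1c1, Ly6c1, Cdh5, Abcb1a and Slc2a1. They were chosen by name, with earlier results of these data known. Their probes were found by matching each probe's accession to the RefSeq gene symbol. All 10 were measured, among 15737 named genes measured in all. RNA came from brain tissue of male mice of the C57Bl/6 N strain, aged 12 weeks, that were either Il18-/-, lacking the cytokine interleukin-18, or Il18+/+. Each genotype has 1 sample, a pool of total RNA from 7 mice hybridised to 1 array. The tissue is labelled hippocampus, but the protocol for RNA extraction and a sentence of the design text name prefrontal cortex. How the Il18-/- allele was made is not given in the sources used here.

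Endothelial cells line the blood vessels. In the brain they are sealed to each other by tight junctions and carry few vesicles, so that nutrients, hormones and drugs cross only where a transporter lets them through. The angiopoietin and vascular endothelial growth factor (VEGF) pathways keep these vessels alive and quiet, and Wnt signals from neural cells maintain their barrier character. The proteins of the list fall into junction and adhesion molecules, growth factor receptors, transporters and a surface marker.

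The RNA levels of brain endothelial and barrier genes differed little between the genotypes. Slco1c1, a thyroxine and organic anion transporter, differed most, at 1.30-fold lower in Il18-/-, and the other 9 genes lay between -0.14 and 0.08 on the log2 scale. Of the 10 genes 5 were lower and 5 higher in Il18-/-, with a median log2 difference of -0.03. None reached 1.5-fold in either direction, a size that 4.25% of all measured genes reached, 2.57% by being lower and 1.68% by being higher. Over all measured genes the median difference was 0.01 and 47.4% were lower. The median absolute difference was 0.08 for the 10 genes and 0.12 for all measured genes. These figures are not matched for signal level, and bright genes differed less. In 4 equal classes from dim to bright, 4 of the 10 genes lay in the brightest, where 0.559% of genes reached 1.5-fold. The next brightest class held 3 of them, and there 1.47% did.

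A level is the log2 of a signal with that of the array's 75th percentile subtracted. Intensities are printed before this scaling, so their ratios run slightly above the differences. Differences are Il18-/- minus Il18+/+. The extraction software assigns an error to each spot. For the member spots that error was a nearly fixed share of the signal, in Il18-/- 428.3 at 4283 for Cldn5 and 614.3 at 6143 for Flt1. The error after a ± sign is made from these spot errors on the log2 scale. They were combined over spots, probes and the 2 arrays as if independent. For Cldn5 this gave 0.14 on each array and 0.20 for the difference. The combined error is smaller where 2 spots or probes were averaged, and it does not measure the spread between animals. Over 329 probes with repeated spots, the median standard deviation of the difference between spots was 0.07. With 1 pool per genotype there was no test and no replicate check, and precision is limited by having 2 arrays. Il18 itself, the gene that was targeted, had levels of -0.12 in Il18-/- and 1.37 in Il18+/+. The difference was -1.49, but the probe's place relative to the deleted part is not known here, so its signal does not check the genotype. The share of probes well above background was 65.4% in Il18-/- and 67.2% in Il18+/+. In bulk tissue, fewer endothelial cells and less RNA per cell cannot be told apart.

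The 4 transporters among the members hold both the largest difference, that of Slco1c1, and the smallest, that of Slco1a4. Their promoter sequences are shown for that reason, as given by RefSeq for GRCm38.p6, 5′ to 3′ on the strand of the gene, from 250 bases before to 50 bases after the start. Capitals mark the ETS core GGAAG or its complement CTTCC, the letters bound by the ETS factors that act in endothelium.
Slco1c1, chr6:141524104-141524403, plus strand: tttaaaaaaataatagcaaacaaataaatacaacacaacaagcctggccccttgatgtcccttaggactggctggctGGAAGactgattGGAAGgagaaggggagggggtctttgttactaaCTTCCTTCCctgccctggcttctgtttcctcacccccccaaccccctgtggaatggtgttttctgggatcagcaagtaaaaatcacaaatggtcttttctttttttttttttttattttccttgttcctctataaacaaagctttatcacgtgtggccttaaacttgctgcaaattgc
Slco1a4, chr6:141856171-141856470, minus strand: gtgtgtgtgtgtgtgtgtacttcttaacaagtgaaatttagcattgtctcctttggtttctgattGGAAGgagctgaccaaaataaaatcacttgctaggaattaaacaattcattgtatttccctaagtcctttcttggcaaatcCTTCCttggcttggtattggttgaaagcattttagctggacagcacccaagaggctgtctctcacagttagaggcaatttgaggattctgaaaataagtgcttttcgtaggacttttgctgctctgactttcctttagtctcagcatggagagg
Abcb1a, chr5:8566841-8567140, plus strand: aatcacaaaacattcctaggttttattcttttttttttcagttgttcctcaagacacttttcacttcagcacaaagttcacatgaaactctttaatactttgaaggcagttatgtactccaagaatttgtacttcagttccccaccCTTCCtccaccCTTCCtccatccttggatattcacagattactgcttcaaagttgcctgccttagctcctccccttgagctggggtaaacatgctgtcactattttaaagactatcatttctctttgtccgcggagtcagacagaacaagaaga
Slc2a1, chr4:119108495-119108794, plus strand: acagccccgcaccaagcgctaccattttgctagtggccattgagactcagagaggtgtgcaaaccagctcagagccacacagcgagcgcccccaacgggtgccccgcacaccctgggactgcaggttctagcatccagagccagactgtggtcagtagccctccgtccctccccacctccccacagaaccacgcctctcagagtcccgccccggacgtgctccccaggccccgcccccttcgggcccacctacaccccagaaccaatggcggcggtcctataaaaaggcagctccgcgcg

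Of the 10 members 8 had a promoter in the RefSeq table, with 9 promoters in all because Ly6c1 has 2. The ETS core, searched on both strands with overlapping matches counted, occurred in 6 of the 9, against 71.4% of the 32851 mouse promoters of the same length. The Slco1c1 window held 4 matches, the Slco1a4 and Abcb1a windows 2 each, and the Slc2a1 window 0. The TCF/LEF letters CTTTGA, which mark Wnt-responsive sequence, occurred on either strand in 1 of the 9 windows, that of Abcb1a, against 16.0% of all promoters. The FOX letters GTAAACA occurred in 1 of 9, again Abcb1a, against 3.65%. The GC box GGGCGG occurred in 3 of 9 against 35.7%, and the TATA box letters TATAAA in 4 of 9 against 13.6%. GC content differed between the windows, at 65.3% for Slc2a1 and 42.0% for Slco1c1. Matches of different motifs overlapped in 0 of the 9 windows. These matches describe the letters and are no evidence of binding.

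Slco1c1 encodes an organic anion transporter (Oatp1c1) that carries thyroxine across brain endothelium and is also known from choroid plexus epithelium and astrocytes. It was read by 2 probes. The first had an intensity of 1749 in Il18-/- and 2402 in Il18+/+, and the second had 1371 in Il18-/- and 1620 in Il18+/+. Both probes read lower in Il18-/-, with differences of -0.49 and -0.27, and their mean was -0.38 ± 0.14. Slco1c1 was the 1 member whose difference was larger than its error. Among all measured genes 6.95% differed by as much downwards or more, and in its own level class, the third of 4 equal classes from dim to bright, 2.75% did, 108 of 3934 genes. A 1.30-fold difference of a single pool pair has no replicate check.

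Slco1a4, which encodes Oatp1a4, an organic anion and bile salt transporter of the same family, had an intensity of 642.7 in Il18-/- and 624.9 in Il18+/+. Its levels were -0.14 in Il18-/- and -0.15 in Il18+/+, a difference of 0.01 ± 0.20. Slco1c1 thus lay 0.39 below Slco1a4 in difference, which was not tested. Slco1a5, a further family member known from choroid plexus, had levels of -3.61 in Il18-/- and -2.79 in Il18+/+, a difference of -0.82. Slco2b1 differed by -0.06, and Slco1a6 was not well above background on either array.

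Abcb1a encodes P-glycoprotein, the efflux pump that keeps many drugs out of the brain. Its intensity was 766.9 in Il18-/- and 718.8 in Il18+/+, a difference of 0.06 ± 0.20. Its close relative Abcb1b, which encodes a second P-glycoprotein, differed by 0.07. Slc2a1 encodes Glut1, the glucose transporter of the barrier, which astrocytes and choroid plexus also use. Its intensity was 4628 in Il18-/- and 4998 in Il18+/+, a difference of -0.14 ± 0.20. Slc2a1 was within its error, and 6.08% of the genes in its level class, the brightest, differed as far downwards. The median difference of that class was 0.07.

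**Figure D1:**
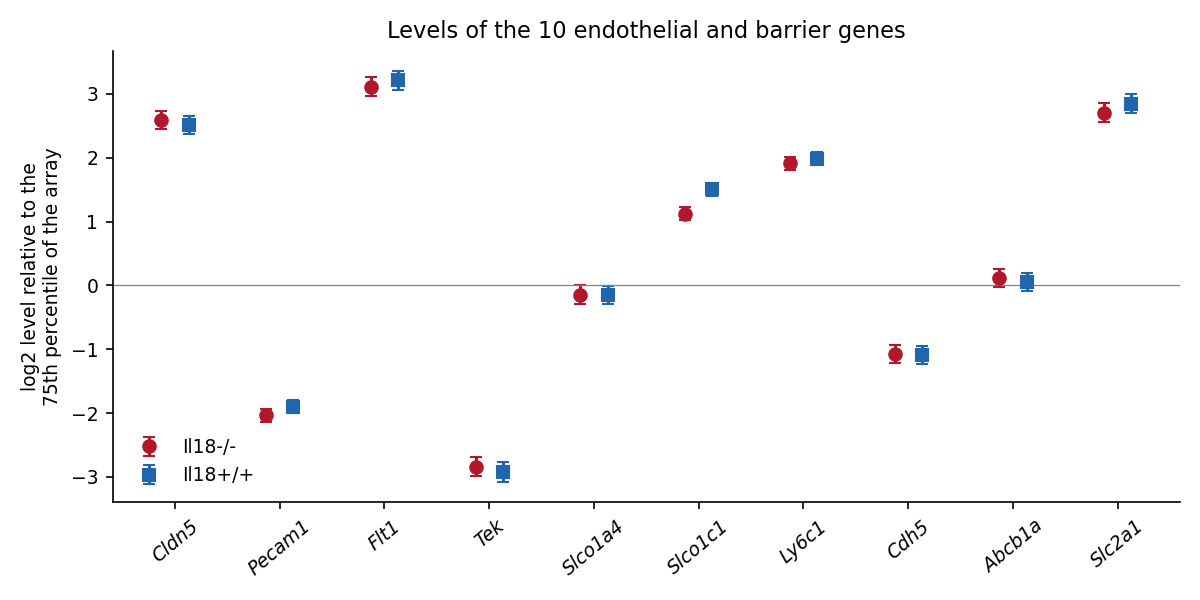
Log2 level of each member relative to the 75th percentile of the array, with Il18-/- as circles on the left and Il18+/+ as squares on the right, 1 pooled sample each. Bars show the error on that array, combined from the errors that the extraction software assigns to spots. The pairs overlap except for Slco1c1, at 1.13 in Il18-/- and 1.51 in Il18+/+; levels of different genes come from different probes and are not comparable.

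Cldn5 encodes claudin-5, the main tight junction protein of brain endothelium. Its intensity was 4283 in Il18-/- and 3963 in Il18+/+, and its levels of 2.59 in Il18-/- and 2.51 in Il18+/+ gave a difference of 0.08 ± 0.20. Cdh5 encodes VE-cadherin, which holds endothelial cells together at adherens junctions. Its intensity was 337.3 in Il18-/- and 326.1 in Il18+/+, a difference of 0.02 ± 0.21. Neither junction gene differed by more than its error.

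Pecam1 encodes CD31, an adhesion molecule of endothelial contacts and of leukocytes, and its 1 probe stood on 2 spots. The spots read 178.5 and 168.0 on the Il18-/- array, against 197.8 and 175.1 on the Il18+/+ array. The spots differed by -0.18 and -0.09, and the probe by -0.14 ± 0.15. Both spots lay on the same side, and the difference was within its error.

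Flt1 encodes VEGF receptor 1, which binds VEGF and limits its access to the signalling receptor. Its intensity was 6143 in Il18-/- and 6427 in Il18+/+, a difference of -0.10 ± 0.20. Tek encodes Tie2, the receptor of the angiopoietins. Its intensity was 99.3 in Il18-/- and 91.7 in Il18+/+, a difference of 0.08 ± 0.22, in the dimmest of the 4 level classes. The 2 receptor genes therefore differed in opposite directions, each within its error.

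Ly6c1 encodes a small membrane-anchored surface protein of capillary endothelium and of some leukocytes. It was read by 2 probes that disagreed in direction. The brighter probe read 6940 in Il18-/- and 6477 in Il18+/+, a difference of 0.07. The dimmer probe read 1026 in Il18-/- and 1167 in Il18+/+, a difference of -0.22. The mean was -0.07 ± 0.14, so no direction can be given. Ly6c1 has a near-identical neighbour, Ly6c2, for which no probe was matched, so which copy the probes read is uncertain. Ly6a, another member of the family found on brain endothelium, differed by -0.07, and Ly6e by 0.09.

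**Figure D2:**
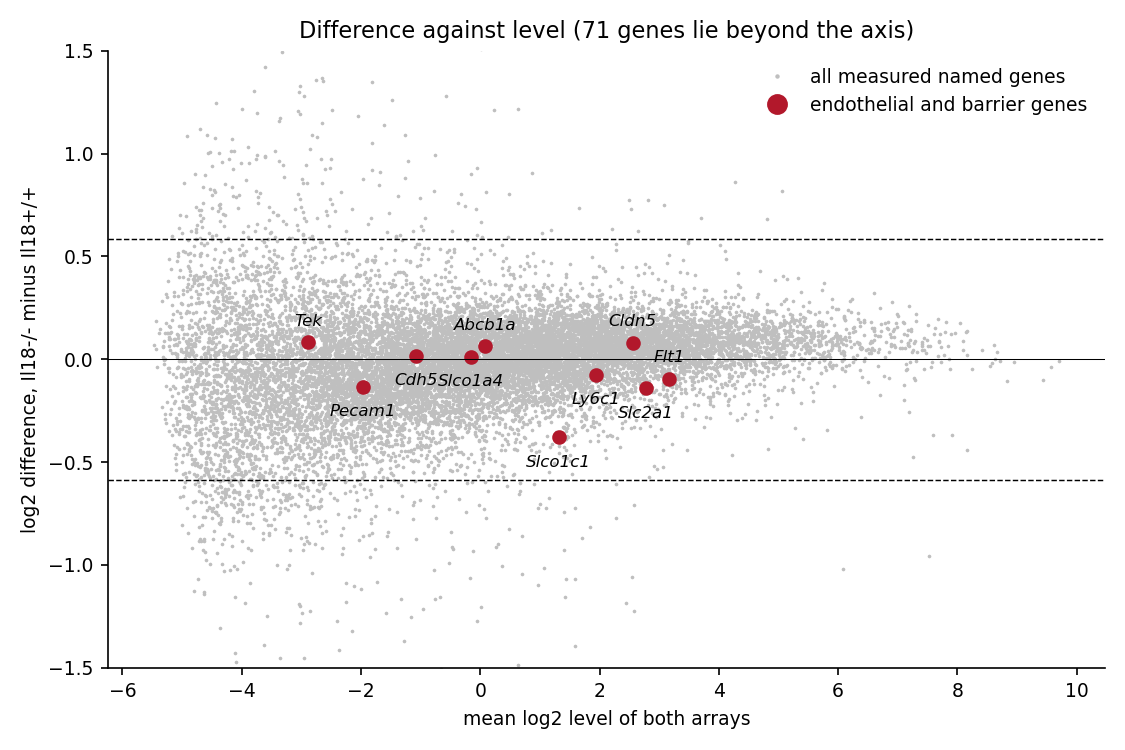
Log2 difference, Il18-/- minus Il18+/+, against the mean log2 level of both arrays for all 15737 measured named genes (grey) and the 10 members (red), with dashed lines at 1.5-fold. All members lie between the dashed lines, with Slco1c1 at -0.38 below the other 9; 71 genes lie beyond the axis.

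All 13 member spots were well above background on both arrays, and none was saturated or marked as an outlier. The members spanned the whole range of level, with 1 in the dimmest class, 2 in the next, 3 in the third and 4 in the brightest. The spread of differences narrowed with level, with 11.9% of the dimmest class and 0.559% of the brightest class at 1.5-fold or more. Of the genes in the brightest class 6.08% lay at or below Slc2a1 in difference, 9.51% at or below Flt1, 12.2% at or below Ly6c1 and 54.3% at or below Cldn5. The 18 spots around each member spot had median differences between -0.17 and 0.12, and up to 3 of them were at 2-fold or more. The lowest of these medians, -0.17, belonged to the Slco1c1 probe that differed by -0.49, while the spots around its other probe had a median of -0.02. The part of the neighbouring spots in the Slco1c1 value was not tested.

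Other genes of the barrier and of its signals were described by 8 lists, which hold 124 genes beside the members, 119 of them measured. Of these, 78 were lower in Il18-/- and 41 higher, with a median of -0.05, while 47.4% of all measured genes were lower. By 1.5-fold or more 5 were lower and 0 higher. The 5 genes make up 4.20% of the lists, near the 4.25% of all measured genes. They were Slco1a5, Cldn3, Pgf, Vegfa and Cyyr1. Slco1a5, Cldn3 and Cyyr1 are dim, at levels of -3.61, -3.85 and -3.48 in Il18-/- and of -2.79, -3.07 and -2.82 in Il18+/+. In the dimmest of the 4 level classes 11.9% of genes reached 1.5-fold. When the median signal was used with normexp background correction 0 of the 119 reached 1.5-fold, and 1.40% of all measured genes did.

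Of the 14 measured tight and adherens junction genes 10 were lower and 4 higher, with a median of -0.07. Cldn3, a claudin known from epithelia including the choroid plexus, was 1.71-fold lower, at levels of -3.85 in Il18-/- and -3.07 in Il18+/+. Cgn, which encodes cingulin, differed by -0.31, Marveld3 by -0.22 and Marveld2, which encodes tricellulin, by 0.22. Cldn1 was well above background in Il18-/- only, at least 1.70-fold higher against the higher of its own dim signal and the lowest signal well above background. Of the 8 caveolae and fenestration genes 4 were lower and 4 higher. Cavin3 differed by 0.25, Cavin2 by -0.22 and Ehd4 by -0.21. Plvap, the diaphragm protein of fenestrated vessels such as those of the choroid plexus, differed by -0.22 as the mean of probes at -0.04 and -0.39.

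Of the 22 other measured transporters and uptake receptors 13 were lower and 9 higher, with a median of -0.06, and Slco1a5, at 1.77-fold lower, was the 1 at 1.5-fold. Slc19a3, a thiamine transporter gene, differed by -0.50 as the mean of probes at -0.89 and -0.11. The efflux pump gene Abcc4 differed by -0.48 and the phospholipid flippase gene Atp10a by -0.48. Slc19a3 and Atp10a are dim, at levels of -4.54 and -4.28 in Il18-/- and of -4.04 and -3.80 in Il18+/+.

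In the VEGF and angiopoietin pathway, 8 of 11 measured genes were lower, with a median of -0.17, and Flt4, the lymphatic VEGF receptor gene, was not well above background on either array. The ligand genes held the largest differences. Pgf, which encodes placental growth factor, a ligand of the Flt1 protein, was 1.73-fold lower, at levels of -2.23 in Il18-/- and -1.44 in Il18+/+. Vegfa was 1.51-fold lower by the mean of 2 probes, the dimmer at -0.91 and the brighter at -0.28, so the 1.5-fold size rests on the dimmer probe. Ptprb, which encodes the phosphatase VE-PTP that acts on Tie2, differed by -0.39 as the mean of probes at -0.14 and -0.65, and the co-receptor gene Nrp1 by -0.24.

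The Wnt pathway genes of the barrier had 10 of 18 lower and a median of -0.01, with none at 1.5-fold. The co-receptor gene Lrp6 differed by -0.51 and the receptor gene Fzd4 by -0.48, while the Wnt target and inhibitor gene Apcdd1 differed by 0.42. Other pan-endothelial genes had 17 of 24 lower, and 9 of 24 when arrays were scaled to their median, with a median of -0.04. Cyyr1 was 1.59-fold lower, at levels of -3.48 in Il18-/- and -2.82 in Il18+/+, the transcription factor gene Sox18 differed by -0.42, Podxl by -0.32 and Ets1 by 0.32.

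Arterial genes had 7 of 12 lower and a median of -0.03. Notch4, a Notch receptor gene of endothelium, differed by -0.29, the semaphorin gene Sema3g by -0.25, Efnb2, which encodes the arterial ligand ephrin-B2, by -0.19 and the Notch ligand gene Dll4 by 0.13. Venous and activated genes had 9 of 10 measured members lower, with a median of -0.15 and none at 1.5-fold. Among all measured genes 47.4% were lower. The count of 9 includes small differences, such as Il1r1 at -0.01 and Ctsc at -0.04. It became 7 with median scaling, 7 with normexp and 10 with quantile normalization. Nr2f2, which encodes the venous factor COUP-TFII and is also expressed in other brain cells, differed by -0.57, and Vcam1, an adhesion molecule induced by inflammatory cytokines, by -0.48 as the mean of probes at -0.22 and -0.74. Ephb4, the venous receptor gene, differed by -0.34 and the P-selectin gene Selp by -0.26. The adhesion genes Icam1 and Sele were not well above background on either array.

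**Figure D3:**
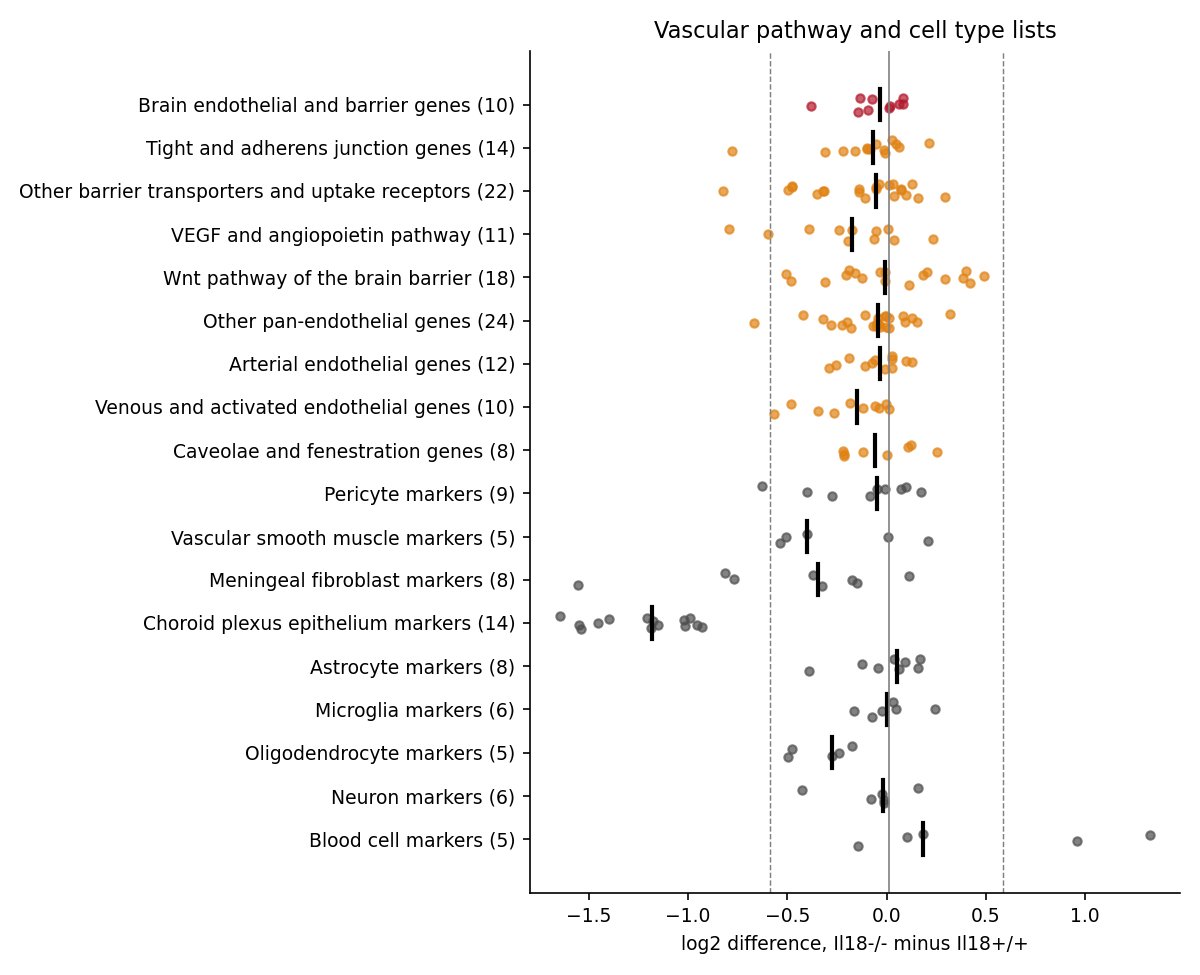
Log2 difference, Il18-/- minus Il18+/+, of each measured gene (points) and the median (black bar) of the members, the 8 pathway lists and the 9 cell type lists, with the number of measured genes in brackets, a grey line at the median of all genes and dashed lines at 1.5-fold. The member and pathway medians lie between -0.17 and -0.01, and the choroid plexus median lies at -1.18.

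Markers of other cell types in the sampled tissue differed by unequal amounts. All 14 choroid plexus markers were lower in Il18-/-, each past the 1.5-fold size. Among all measured genes 47.4% were lower, and 2.57% were at least 1.5-fold lower. The cell type lists were chosen with earlier results of these data known, so their counts are no independent check. The median of the choroid plexus markers was -1.18, and their summed linear level in Il18-/- was 0.504 of that in Il18+/+. Cldn2, F5, Aqp1 and Col8a1 were the lowest of them, with differences of -1.65, -1.55, -1.54 and -1.45, and no choroid plexus marker was below background. Of 8 meningeal fibroblast markers 7 were lower, with a median of -0.35 and a summed level in Il18-/- of 0.716 of that in Il18+/+. For the 10 endothelial genes the summed level in Il18-/- was 0.945 of that in Il18+/+. Each sum follows its brightest probes, so the sums do not weigh the genes of a list equally. For choroid plexus these are Ttr and Enpp2, at levels of 8.01 and 6.59 in Il18+/+, with differences of -0.96 and -1.02. Slco1c1, Slco1a5 and Cldn3 are known from choroid plexus as well as from other cells, and the part of choroid plexus RNA in their values was not tested.

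Markers of the mural cells that wrap the endothelium were mixed. Of 9 pericyte markers 6 were lower, with a median of -0.05. Abcc9, a potassium channel subunit gene of pericytes, was 1.54-fold lower, Anpep differed by -0.40, Rgs5 by -0.28 and Kcnj8 by 0.17. Of 5 smooth muscle markers Myh11, Cnn1 and Acta2 were lower, with differences of -0.54, -0.51 and -0.40, Tagln differed by 0.01 and Mylk by 0.21. The smooth muscle median was -0.40, and -0.20 with the stricter filter on dim probes. Myh11 and Cnn1 are dim, at levels of -4.33 and -3.22 in Il18-/- and of -3.79 and -2.71 in Il18+/+. Astrocyte markers, the cells whose end-feet cover the vessels and which also express Slco1c1, had 3 of 8 lower and a median of 0.05. Microglia markers had a median of 0.00, neuron markers -0.02 and oligodendrocyte markers -0.28. All 5 oligodendrocyte markers were lower. Blood cell markers had 4 of 5 measured genes higher and a median of 0.18. S100a9 differed by 1.33 and S100a8 by 0.96, both dim, at levels of -2.36 and -3.85 in Il18-/- and of -3.69 and -4.81 in Il18+/+. Hba-a1, a haemoglobin gene that reports blood left in the vessels, differed by 0.18, and Ptprc by -0.14.

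The choice of scaling matters for values this small. Control RNA spiked into both samples was brighter in Il18-/-, its median difference being 0.31 once the arrays had been scaled. This median rests on 8 spike-in probes whose differences ran from 0.04 to 0.52, so the shift is itself imprecise. Scaling to this RNA instead moves every gene by -0.31, so that all 10 members become lower and Slco1c1 reaches -0.69, while the median of all genes moves to -0.30. Relative to that median the members lay at -0.04, as in the reported scaling, which a shift of every gene by the same amount cannot change. Under the 11 other alternatives Slco1c1 stayed between -0.49 and -0.32, and Pecam1, Flt1 and Slc2a1 were lower and Cldn5, Tek, Slco1a4 and Abcb1a higher in each. For members read by 1 probe, several of these alternatives could not change the value. They are the filters on dim probes, the brightest or median probe, kept outliers and the deposited table. Only the other scalings and the median-signal settings could move those members. Ly6c1 turned to 0.07 when read by its brightest probe, and Cdh5 reached -0.04. The medians of the junction, VEGF and angiopoietin, venous and caveolae lists were negative under these 11 alternatives, while those of the transporter, Wnt, pan-endothelial and arterial lists reached 0.00, 0.09, 0.02 and 0.02 in at least 1 of them.

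**Figure D4:**
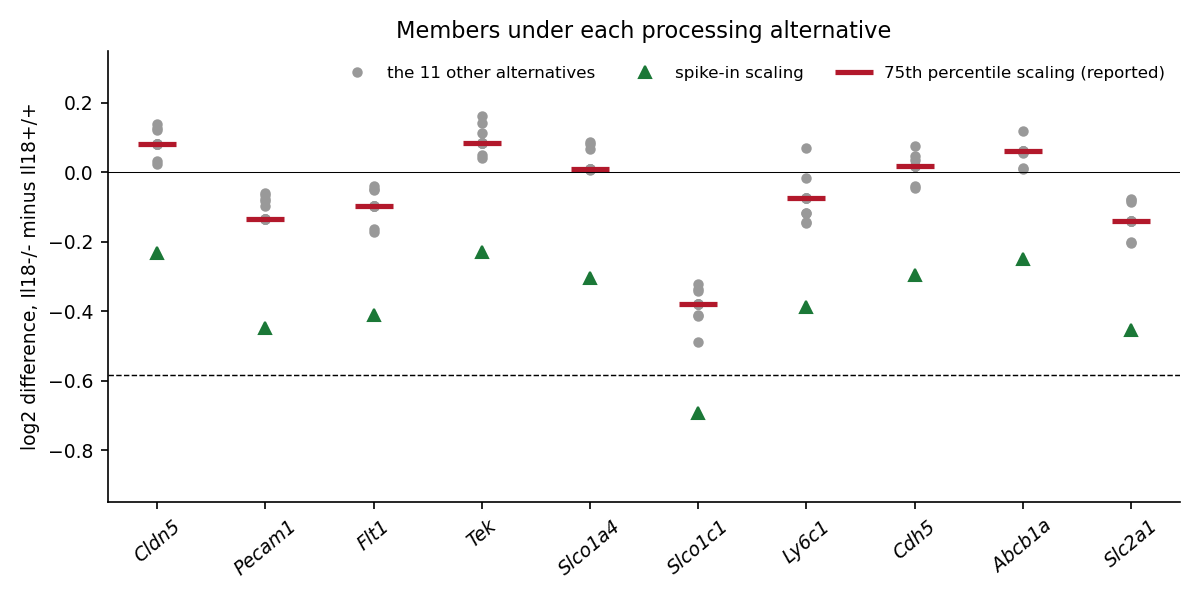
Log2 difference, Il18-/- minus Il18+/+, of each member in the reported scaling (red bars), under spike-in scaling (green triangles) and under the 11 other processing alternatives (grey points), with a dashed line at 1.5-fold lower. Slco1c1 is the lowest member in every setting shown, and it passes the line only under spike-in scaling, at -0.69.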

How the data were processed

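Per the labels, RNA pools of 7 mice were labelled with Cy3, and each pool was put on 1 Agilent one-colour array. Per the file headers, the deposited intensity was made with Agilent Feature Extraction, whose version is 10.10.1.1, and has its background subtracted within an array. No scaling between arrays is recorded. The arrays share 1 slide and 1 scan. The authors' deposited table is that intensity multiplied by 1.92 throughout in Il18-/- and by 2.05 in Il18+/+, linear and not centred, with column medians of 139.5 and 151.5. What set the constants stays unknown.

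The 3671 control spots and spots with an outlier flag were left out (177 on the Il18-/- and 124 on the Il18+/+ array). Log2 intensity minus the 75th percentile of the array (709.9 for Il18-/- and 694.8 for Il18+/+) was averaged over spots of a probe, then over probes well above background on both arrays. Accessions named 27235 of 55681 probes through RefSeq GRCm38.p6, none with several symbols, and 28446 stayed unnamed. The array design uses mm9, so only the promoters carry GRCm38.p6 coordinates. Of each other list up to 4 measured genes with the largest difference and the relatives of members are named, except for items not reported here. Members and lists were chosen with earlier results of these data known. In simulated data made for this comparison and its 15737 genes, 100% of 2-fold and of 3-fold genes and 0% of unchanged genes were called at 1.5-fold, under spot noise alone. That noise was set equally small at every level, so these shares check the calculation and not how often unchanged genes reach 1.5-fold here. Alternatives were quantile, median, loess (span 0.3) and spike-in scaling, the median signal with normexp (offset 50) or uncorrected, outliers kept, the brightest or median probe, a stricter filter on dim probes or none, and the deposited table. Software was limma 3.58.1 in R 4.3.3, and Python 3.11.15 with statsmodels 0.14.6, pandas 2.3.3, numpy 2.4.6, matplotlib 3.10.9 and scipy 1.17.1.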

Additional observations from a re-analysis of the deposited data

How the results depend on the processing

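The median difference of the 10 genes ranged from -0.05 to 0.03 under 11 of 12 alternatives and was -0.35 under spike-in scaling, where 10 genes were lower and 1, Slco1c1, was at 1.5-fold. Leaving out each gene in turn gave medians from -0.07 to 0.01 and 4 or 5 lower genes. Counting only differences larger than the error, an alternative chosen after seeing the data, left 1 lower gene. The 5 pathway genes at 1.5-fold became 23 under spike-in scaling, 0 with normexp, 2 with the uncorrected median signal, 9 with no filter on dim probes and 3 with the stricter filter. The share of all measured genes at that size was 4.25% as reported, and 12.7%, 1.40%, 1.77%, 10.5% and 2.59% in these settings, in the same order. Fewer genes are tested under the stricter filter and more with no filter, and for the 2 median-signal settings the cause was not tested. All measured genes at 1.5-fold numbered 405 lower and 264 higher as reported, 107 and 114 with normexp, 147 and 132 with the uncorrected median signal, 1357 and 815 with no filter, 195 and 156 with the stricter filter, 317 and 320 with median scaling, 283 and 333 with loess normalization and 1865 and 126 under spike-in scaling. Of 532 other recomputed values 483 moved by no more than 0.12, the median spread between probes of a gene, or by no more than 1.5 times for counts. The 532 include the deposited table, whose constants the scaling removes, so its values could not move. Of the single and list differences recomputed, only the choroid plexus median, -1.18, was past 1.5-fold in the reported scaling, and it kept its sign. The signs of single genes other than the members were not followed. No paired analysis was possible because each genotype has 1 sample. Signal over background limits dim genes most, since 11.9% of the dimmest of 4 equal level classes reached 1.5-fold.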

Other observations

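Thyroid hormone is the main cargo of the Slco1c1 protein, and genes of its transport, conversion and response in brain were listed beside it. This list of 10 genes was chosen after the value of Slco1c1 had been seen. Of 9 measured genes 6 were lower in Il18-/-, with a median of -0.04, a range from -0.24 to 0.17 and none at 1.5-fold. Dio2, which encodes the enzyme that activates thyroxine in astrocytes and tanycytes, had levels of 2.07 in Il18-/- and 1.90 in Il18+/+, a difference of 0.17, and Dio3, which encodes the inactivating enzyme, differed by -0.20 at dim levels of -4.31 in Il18-/- and -4.11 in Il18+/+. The receptor gene Thra differed by 0.01 and Thrb by -0.24, and the hormone-responsive genes Klf9 and Hr by -0.04 and -0.01. Slc16a10 was not measured on both arrays. Of its 2 probes, 1 was well above background in Il18-/- only and read at least 1.56-fold higher there, at dim levels of -4.92 in Il18-/- and -6.16 in Il18+/+. The other was not well above background on either array and read lower in Il18-/-, so no direction is given for the gene.

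Probes of 1 gene often differed from each other by their level. Among the 26 pathway genes with several measured probes, the dimmest probe lay below the brightest in log2 difference in 22, by a median of -0.29. Among all 4123 genes with several measured probes this held for 66.2%, by a median of -0.09. Of the 2 members with several probes it held for Ly6c1 but not for Slco1c1, whose brighter probe differed by -0.49 and dimmer probe by -0.27. The median difference of all genes went the same way with level, at -0.08 in the dimmest of 4 equal level classes and 0.07 in the brightest.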
